A study of Rattus norvegicus with 3 samples.

Results

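The miR-143 and miR-145 hairpins were followed in small RNA libraries from extracellular vesicles, the membrane particles that cultured astrocytes shed into their medium. Rows were chosen by name alone: those named rno-miR-143 or rno-miR-145, whatever arm or length tag followed. This gave 4 of the 1480 rows of each file, and 4 of the 548 rat-named rows, that is 1 row for each arm of the 2 hairpins. No row carried either miRNA under another species prefix (0 rows), and none of the 4 had divided counts or a twin row with equal counts. The astrocytes were primary wild-type cells of neonatal rats, and all 3 libraries were marked as the same batch. Untreated cells gave 1 library. The IL-1a/TNFa/C1q cells, called the inflammatory mixture here, were given 2 inflammatory cytokines and complement C1q from day 6 for 24 h and gave 1 library. The IL-4/C1q cells had IL-4 in place of those cytokines on the same schedule and gave 1 library. The treated cultures thus shared C1q, and no library with C1q alone is analysed here. One protocol sentence mentions RNA of harvested astrocytes, so the vesicle source rests on the other labels.

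miR-143 and miR-145 are processed from hairpins that lie close together and are transcribed as a single primary transcript in many cells. They are known best from smooth muscle, pericytes and fibroblasts, where serum response factor and myocardin switch the locus on. There they hold down factors such as KLF4 and ELK1 and favour the contractile over the proliferating state. In brain tissue they are best known from the mural cells of vessels rather than from neurons.

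The hairpins are printed because arm use is one of the results, with the mature arms in capitals. All sequences are from RefSeq for rat assembly GRCr8, where all 4 arms were matched by name. Mir143 spans chr18:57371349-57371453 and Mir145 chr18:57369983-57370070, both on the minus strand, with 1278 bases between them. In the direction of transcription Mir143 comes first.
Mir143: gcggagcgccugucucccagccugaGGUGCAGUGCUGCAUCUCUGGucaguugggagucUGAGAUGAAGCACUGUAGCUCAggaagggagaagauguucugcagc
Mir145: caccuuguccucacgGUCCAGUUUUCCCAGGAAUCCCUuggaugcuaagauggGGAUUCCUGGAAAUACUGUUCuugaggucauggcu

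The mature arms follow, named without their rat prefix except here (rno-miR-143-5p, rno-miR-143-3p, rno-miR-145-5p and rno-miR-145-3p), with the seed, bases 2 to 8, in capitals. The seed is the stretch through which a miRNA mainly recognises its targets.
miR-143-5p: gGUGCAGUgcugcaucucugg
miR-143-3p: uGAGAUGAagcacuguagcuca
miR-145-5p: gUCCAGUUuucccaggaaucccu
miR-145-3p: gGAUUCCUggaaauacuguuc
The 4 seeds all differ, and none is shared with another of the 693 rat mature miRNA names in that table (0 sharers for each). In these sequences the arms are therefore distinct by seed from each other and from all other listed rat miRNAs.

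Both 5p rows carried the plain mature name. The miR-143-3p row carried a substitution tag that reads A22T, counted from 1 at the 5′ end, where T stands for U in RNA. Position 22 is the last base of the 22-base mature form, and the hairpin does not hold the substituted form. The miR-145-3p row was tagged L-2R+2. In its usual sense this tag means 2 bases fewer at the 5′ end and 2 more at the 3′ end, read here on the hairpin. What the tags mean is not given in the sources used here. For substitution tags the reading was checked on the rat-named rows whose name is in RefSeq, and the stated base stood at the stated position in 25 of 29. The forms so read are shown next, with the substituted base in capitals in the first and the seed in capitals in the second.
miR-143-3p row: ugagaugaagcacuguagcucU
miR-145-3p row: aUUCCUGGaaauacuguucuu
The miR-143-3p tag leaves the seed as it was. The miR-145-3p tag moves the seed to UUCCUGG, which no other rat mature miRNA of the table has (0 sharers). A shifted 5′ end was not rare: 64 of 525 distinct rat row names had one, 21 of them by 2 or more bases. Each arm had a single row, so counts of its other length forms, if they were pooled into that row, are not seen apart and no share of length variants can be given.

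The files held 6318839 miRNA counts for untreated cells, 12327301 for the inflammatory mixture and 7779718 for IL-4/C1q. Levels are given as CPM, the count scaled to a library total of 1e6 miRNA counts. With 1 library per condition there is no replicate error. Intervals are 95% and cover counting error only, PCR copies included as if independent, and every ratio compares libraries rather than conditions. The astrocyte and neural list held miR-9a-5p, miR-9a-3p, miR-125b-5p, miR-29a-3p and miR-181a-5p. All were present, 5 of 5, with a summed 128007, 99136 and 98491 CPM in the order untreated, inflammatory mixture, IL-4/C1q. Whether their reads came from astrocytes was not tested.

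All 4 arms were lowest in untreated cells, higher with the inflammatory mixture and highest with IL-4/C1q. miR-143-3p, the main product of its hairpin, had 76708 counts in untreated cells, 376935 with the inflammatory mixture and 381572 with IL-4/C1q. As levels these were 12139.6 CPM (12054 to 12225), 30577 CPM (30481 to 30674) and 49047 CPM (48895 to 49199). The intervals of the 3 libraries did not overlap. miR-143-5p, the scarce partner strand, had 341, 1664 and 1954 counts in the same order. Its levels were 54.0 CPM (48.4 to 60.0), 135 CPM (129 to 142) and 251 CPM (240.2 to 263). miR-143-5p thus followed the same order at a far lower level.

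miR-145-3p had 1588 counts in untreated cells, 6480 with the inflammatory mixture and 6346 with IL-4/C1q. This came to 251 CPM (239 to 264), 526 CPM (513 to 539) and 816 CPM (796 to 836). miR-145-5p, the strand usually described as the active one and the one tied to KLF4 in human and mouse cells, had 422, 1440 and 1544 counts. Its levels were 66.8 CPM (60.6 to 73.5), 117 CPM (111 to 123) and 198 CPM (189 to 209). Again no 2 libraries overlapped within counting error. The order untreated, inflammatory mixture, IL-4/C1q from low to high was also found in 83 of the 514 miRNAs with at least 50 counts in any library, or 16.1%, the 4 arms among them. In bulk vesicle RNA, more copies per vesicle and more vesicles from cells that express the locus cannot be told apart.

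**Figure D1:**
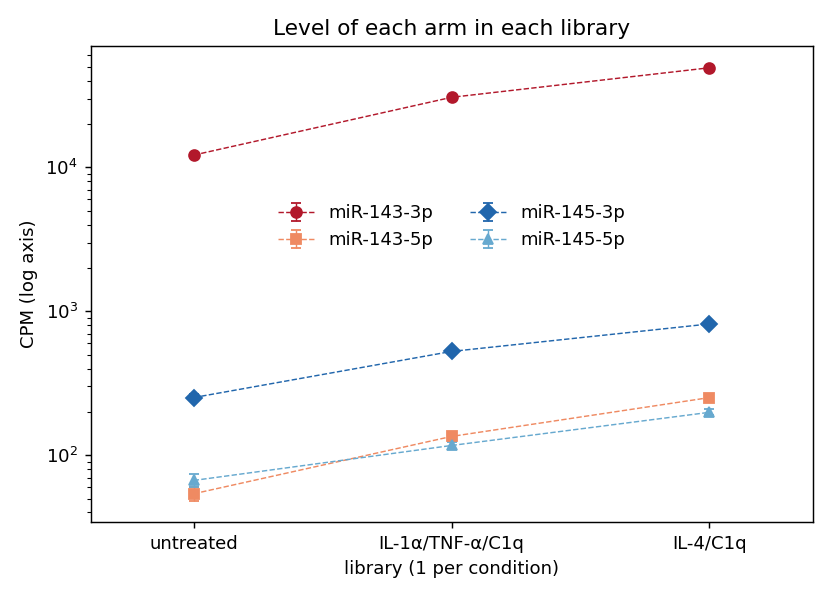
CPM on a log axis for each arm (points, joined by dashed lines to guide the eye) in each of the 3 libraries, with 95% counting intervals that are mostly smaller than the points. miR-143-3p runs from 12139.6 to 49047 CPM, far above the other 3 arms, and every arm is lowest in untreated cells and highest with IL-4/C1q.

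By rank of abundance the locus moved up as well. miR-143-3p stood at rank 17 in untreated cells, 4 with the inflammatory mixture and 2 with IL-4/C1q. miR-145-3p stood at ranks 94 and 78 with the inflammatory mixture and IL-4/C1q, and miR-145-5p at 241, 187 and 152. miR-143-5p moved from 256 to 180 and 139. Together the 4 arms held 1.25% of miRNA counts in untreated cells, 3.14% with the inflammatory mixture and 5.03% with IL-4/C1q. miR-143-3p made up nearly all of this share.

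The first comparison set the inflammatory mixture against untreated cells. A miRNA was called where the shares differed at least 2-fold, the interval left out 1 and whichever library held more had 50 counts or more. By this rule 3 of the 4 arms were higher, against 13.2% of the 514 miRNAs with enough counts, while 21.2% were lower. The ratio was 2.50 (2.22 to 2.82) for miR-143-5p, beside 2.52 for miR-143-3p. miR-145-3p was 2.09-fold higher (1.98 to 2.21), so its interval reached below 2. miR-145-5p was 1.75-fold higher (1.57 to 1.95), short of 2-fold. The miR-143 arms thus had nearly the same ratio, and both miR-145 arms lay lower. By hairpin, both arms summed, miR-143 was 2.52-fold and miR-145 2.02-fold higher (1.92 to 2.12). Ordered from the highest ratio among the 514, miR-143-3p was at place 34, miR-143-5p at 36, miR-145-3p at 59 and miR-145-5p at 96. The median log2 ratio (CPM + 1) over all 514 was −0.07.

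The second comparison set IL-4/C1q against the same untreated library. All 4 arms were higher by the rule, against 12.8% of 486 miRNAs tested, while 23.7% were lower. The ratio was 4.65 (4.15 to 5.24) for miR-143-5p and 4.04 for miR-143-3p. miR-145-3p was 3.25-fold higher (3.07 to 3.43) and miR-145-5p 2.97-fold (2.67 to 3.32). The miR-143 arms were again above the miR-145 arms, with intervals that did not meet. Summed by hairpin, miR-143 was 4.04-fold and miR-145 3.19-fold higher (3.04 to 3.35). The places from the highest ratio among 486 were 10 for miR-143-5p, 12 for miR-143-3p, 22 for miR-145-3p and 28 for miR-145-5p. The median log2 ratio (CPM + 1) over the 486 was −0.17. As both comparisons use the single untreated library, anything peculiar to it enters both.

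The third comparison, IL-4/C1q against the inflammatory mixture, does not use the untreated library. None of the 4 arms reached 2-fold, and of 467 miRNAs 1.28% were called higher and 1.07% lower. All 4 were nonetheless higher with IL-4/C1q, with intervals above 1. The ratio was 1.86 for miR-143-5p (1.74 to 1.99) and 1.70 for miR-145-5p (1.58 to 1.83). For the 3p arms it was 1.60 for miR-143-3p (1.597 to 1.61) and 1.55 for miR-145-3p (1.499 to 1.61). Here both 5p arms had higher ratios than both 3p arms, though the interval of miR-145-5p overlapped those of the 3p arms. From the highest ratio among 467, miR-143-5p was at place 9, miR-145-5p at 14, miR-143-3p at 17 and miR-145-3p at 20. The median log2 ratio (CPM + 1) over the 467 was −0.06. By hairpin the ratios were 1.61 (1.598 to 1.61) for miR-143 and 1.58 (1.53 to 1.63) for miR-145, with intervals that overlap.

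**Figure D2:**
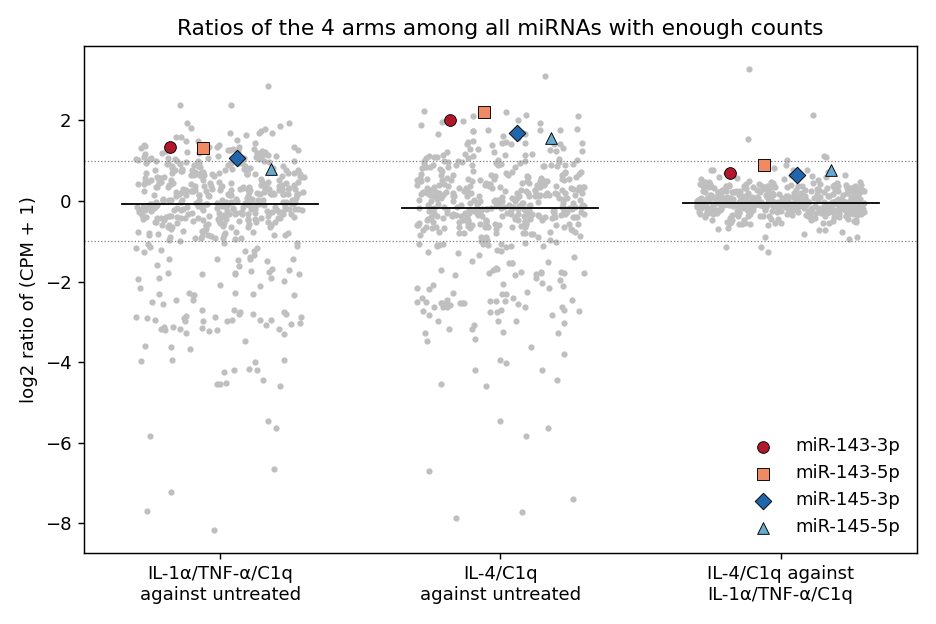
log2 ratio of (CPM + 1) for every miRNA with 50 counts or more in either library compared (grey points) in the 3 comparisons, with the median as a black line, dotted lines at 2-fold and the 4 arms as coloured symbols. The arms lie above the 2-fold line in both comparisons with untreated cells, except miR-145-5p with the inflammatory mixture, and between the median and the 2-fold line in the direct comparison of the treatments.

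The ratio of miR-143 to miR-145 was somewhat larger in both treated libraries than in the untreated one, beyond counting error. Without replicates, how far such a ratio moves between like libraries is not known. miR-143 counts exceeded miR-145 counts 38.3-fold in untreated cells (36.7 to 40.1), 47.8-fold with the inflammatory mixture (46.8 to 48.9) and 48.6-fold with IL-4/C1q (47.5 to 49.7). The library total cancels in this quantity. It was 1.25 times as large with the inflammatory mixture as in untreated cells (1.19 to 1.31) and 1.27 times with IL-4/C1q (1.21 to 1.33). Between the treated libraries it differed 1.02-fold, with an interval that includes 1 (0.985 to 1.05). The excess of miR-143 lay in the 3p arm. Among the 5p arms miR-145 had more counts in untreated cells, with a miR-143 to miR-145 ratio of 0.808 (0.699 to 0.934). That ratio was 1.16 (1.08 to 1.24) with the inflammatory mixture and 1.27 (1.18 to 1.35) with IL-4/C1q, so the more abundant 5p arm was miR-145 in untreated cells and miR-143 in both treated libraries. These ratios compare reads of different sequences and not molecules.

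Arm use differed between the hairpins. The 3p arm of miR-143 outnumbered its 5p arm 225-fold in untreated cells (202 to 251), 227-fold with the inflammatory mixture (216 to 238) and 195-fold with IL-4/C1q (187 to 204). The 5p arm thus held 0.443%, 0.440% and 0.509% of the hairpin's counts. The 3p to 5p ratio was 1.01 times as large with the inflammatory mixture as in untreated cells, with an interval that includes 1 (0.896 to 1.13). With IL-4/C1q it was 0.868 times the untreated ratio (0.774 to 0.974) and 0.862 times that of the inflammatory mixture (0.807 to 0.920). The 5p strand of miR-143 therefore took a slightly larger part with IL-4/C1q than in both other libraries.

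In miR-145 the 3p arm also had more counts, by 3.76-fold in untreated cells (3.38 to 4.20), 4.50-fold with the inflammatory mixture (4.25 to 4.77) and 4.11-fold with IL-4/C1q (3.89 to 4.35). The 5p arm held 21.0%, 18.2% and 19.6% of its counts, against under 1% in miR-143. The ratio was 1.20 times the untreated one with the inflammatory mixture (1.06 to 1.35) and 1.09 times with IL-4/C1q, with an interval that includes 1 (0.965 to 1.23). Between the treated libraries it was 0.913 times as large with IL-4/C1q (0.843 to 0.9899). The 3p arm had more reads in every library although the 5p arm is the one usually named as active. Like the hairpin ratio, the arm ratios compare reads of different sequences and not molecules.

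These arm shifts were read beside those of other hairpins. Of the rat hairpins, 69 had at least 50 counts in both arms in all 3 libraries. The median absolute log2 change of their 3p to 5p ratio was 0.28 with the inflammatory mixture and 0.30 with IL-4/C1q against untreated cells. For miR-143 the log2 changes were 0.01 and −0.20, and for miR-145 0.26 and 0.13, all smaller in size than those medians. In the direct comparison of the treatments the median was 0.17, with −0.21 for miR-143 and −0.13 for miR-145. The strand bias itself was strong for miR-143: 8 of 69 hairpins in untreated cells, and 9 in each treated library, had a bias towards either arm at least as large, miR-143 included. For miR-145, itself included, that number was 47, 45 and 49 of 69. These places hold only among the 69, because the minimum of 50 counts leaves out hairpins with a very scarce arm. Some of those were more one-sided than miR-143, such as miR-29a and miR-23a, with 3p to 5p ratios of 3309 and 932 in untreated cells. The 3p arm had more counts in 33 of the 69 in every library.

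**Figure D3:**
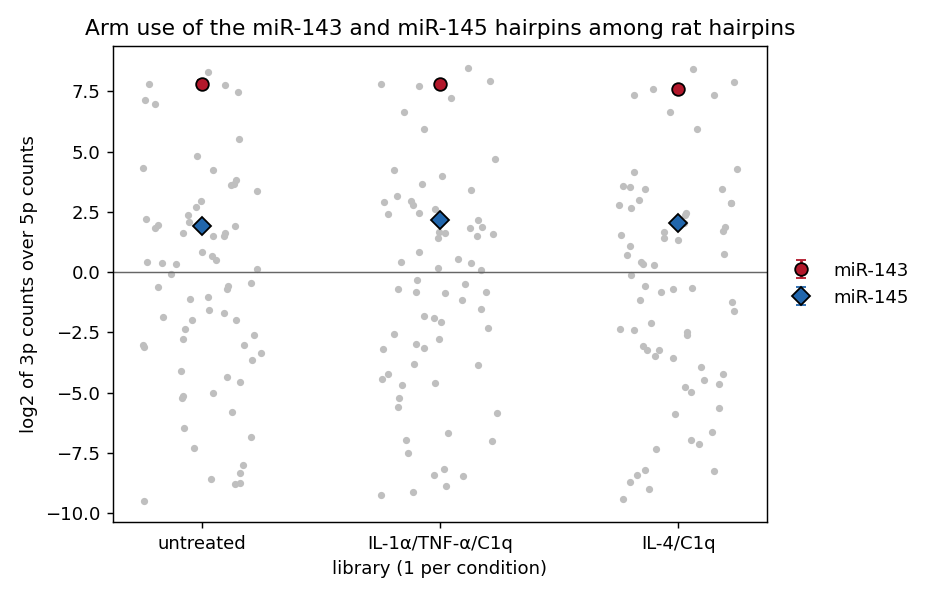
log2 of 3p counts over 5p counts for the 69 rat hairpins with at least 50 counts in each arm of each library (grey points), with miR-143 and miR-145 as coloured symbols with 95% counting intervals. miR-143 lies near the top of each column, at a 3p to 5p ratio of 195 to 227, and miR-145 above the line of equal arms, at a ratio of 3.76 to 4.50. Hairpins with a scarcer arm, some of them more one-sided than miR-143, are not shown.

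Other mesenchymal miRNAs were read from a list of 10, all present in the files. With the inflammatory mixture 3 of 10 were at least 2-fold higher and 2 lower than in untreated cells, with a median log2 ratio (CPM + 1) of 0.62. Over all miRNAs tested, 13.2% were higher and 21.2% were lower. For IL-4/C1q the counts were again 3 and 2 of 10, with a median of 0.81, beside 12.8% higher and 23.7% lower over all. The share lower was thus close to that over all miRNAs. miR-199a-3p, the most abundant of the list in each library and a miRNA of fibroblasts and other stromal cells, had 23551, 137990 and 100170 counts. Its ratios to the untreated library were 3.003 (2.96 to 3.05) and 3.45 (3.41 to 3.50). miR-199a-5p, from the other arm, had 7600, 44333 and 36962 counts, with ratios of 2.99 and 3.95. The miR-214-5p row, which carries a hamster prefix, had 43, 193 and 159 counts, with ratios of 2.30 (1.65 to 3.28) and 3.003 (2.13 to 4.31). The rat-named miR-214-3p had more counts, 938, 2594 and 2067, but was not called. Its ratios were 1.42 (1.32 to 1.53) and 1.79 (1.66 to 1.94).

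The lower members were the HOX-cluster miRNAs miR-10a-5p and miR-10b-5p. miR-10a-5p had 4425, 699 and 553 counts and was 12.4-fold lower with the inflammatory mixture (11.4 to 13.4) and 9.85-fold lower with IL-4/C1q (9.02 to 10.8). miR-10b-5p had 16088, 3417 and 2911 counts and was 9.19-fold and 6.80-fold lower. None of the 10 mesenchymal miRNAs differed at least 2-fold between the treatments (0 higher, 0 lower). Of all 467 miRNAs tested there, only 1.28% were higher and 1.07% lower, so 0 of 10 says little about the list. The median log2 ratio (CPM + 1) of the 10 was 0.26, beside −0.06 over all.

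Marker miRNAs of striated muscle and endothelium had no member called higher in any of the 3 comparisons (0 in each). Over all miRNAs tested 13.2%, 12.8% and 1.28% were higher, so 0 among so few miRNAs says little. The 3 muscle miRNAs found, of 5 listed, summed to 109 CPM in untreated cells, 42.3 with the inflammatory mixture and 49.4 with IL-4/C1q, and 2 were at least 2-fold lower in each treated library. The 2 endothelial miR-126 arms summed to 68.5, 34.9 and 48.3 CPM, with 1 lower with the inflammatory mixture and 0 with IL-4/C1q. Of all miRNAs tested, 21.2% were lower with the inflammatory mixture and 23.7% with IL-4/C1q. No muscle or endothelial miRNA found was at 0 in any library. Epithelial and erythrocyte markers also differed. The 7 epithelial miRNAs summed to 3471 CPM in untreated cells against 115 and 102 CPM in the treated libraries, with 1, 1 and 2 of them at 0. The 4 erythrocyte miRNAs summed to 1744 CPM against 158 and 164 CPM, with 0, 1 and 0 at 0. Those miRNAs and all bovine-named ones made up 0.961% of untreated counts, 0.0868% with the inflammatory mixture and 0.102% with IL-4/C1q. They were also left out of the totals, an alternative added after the values were seen. The miR-143-3p ratios to untreated cells were then 2.50 and 4.01. With shares this small, a change of totals alone could move the ratios only little. Whether other miRNAs varied together with them was not tested.

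Microglia and leukocyte markers summed to 334, 227 and 264 CPM over 5 miRNAs, with 0, 1 and 1 of them at 0. miR-342-3p, with 969, 2633 and 1520 counts, was most of that sum in the treated libraries but not in untreated cells. The mouse-named miR-223-3p of myeloid cells had 368, 28 and 238 counts, and the guinea pig-named miR-142-5p of blood cells 725, 80 and 246. With the inflammatory mixture these were 25.6-fold (17.4 to 39.1) and 17.7-fold (14.02 to 22.6) lower than in untreated cells. In the direct comparison they were the 2 of 5 called, at ratios of 13.5 (9.08 to 20.7) and 4.87 (3.77 to 6.35) with IL-4/C1q, and no other list had a call there (0 in each). Neuron markers summed to 8298, 4823 and 4574 CPM over 4, none at 0. Oligodendrocyte markers summed to 144, 85.4 and 81.1 CPM over 3, with 1, 0 and 0 at 0. No list other than the mesenchymal one had a member called higher than in untreated cells (0 in each). These lists had only 2 to 6 members with enough counts, and over all miRNAs 13.2% and 12.8% were higher, so 0 says little. All 6 epithelial and all 4 erythrocyte miRNAs with enough counts were called lower in each treated library. Of 4 neuron miRNAs 1 and 2 were lower, beside 21.2% and 23.7% over all. A member with under 50 counts in both libraries compared could not be called, even if it was at 0 in untreated cells. No list was tested for a part in the miR-143 and miR-145 results.

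Among 234 other rat miRNAs with at least 1000 counts over the 3 libraries, the nearest to miR-143-3p in pattern was its own partner strand. Likeness was the Euclidean distance between the pairs of log2 ratios to untreated cells, so it rests on 3 libraries and on the shared untreated one. The distance was 0.20 for miR-143-5p, 0.25 for miR-199a-5p, 0.32 for miR-381-3p, 0.34 for miR-199a-3p and 0.35 for miR-134-5p. miR-381-3p had ratios of 2.81 and 3.32, from 948.5, 5193 and 3882 counts, and miR-134-5p had 2.43 and 3.17, from 457, 2167 and 1783 counts. miR-145-3p came at place 7 with 0.41 and miR-145-5p at place 12 with 0.69. The neighbours of miR-143 on chromosome 18 were therefore farther from it in pattern than several miRNAs of other names.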

How the data were processed

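Small RNA libraries were sequenced on an Illumina platform, per the labels' protocols. No source used here names an aligner, counter, miRNA database or build. Each deposited file held an estimated count per row, partly fractional where reads were divided among rows, and a scaled signal. The deposited signal equals the authors' count times a constant per library (1.25, 0.684 and 1.14), whose basis is not stated. It served only as an alternative scaling. The 372 predicted candidates (0.066%, 0.036% and 0.034% of counts) were left out of totals. Rows of a name were summed to 919 miRNAs, substitution-tagged rows apart where the plain name had a row. Estimated counts were rounded for intervals.

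A ratio of shares has an exact conditional binomial 95% interval, and shares and arm ratios have Clopper-Pearson ones. Intervals of a ratio between libraries of arm or hairpin ratios used scipy 1.17.1 odds ratios. A call needs a 2-fold difference, an interval without 1, and 50 counts in whichever library holds more. List medians used CPM + 1. Interval and call code was tested on simulated data. Alternatives were edgeR 4.0.16 TMM, DESeq2 1.42.0 size factors and other totals, count minimums and folds. Members and lists were chosen with earlier results of these data known. Outside the hairpins, text names the 5 nearest patterns, and the most abundant and the called mesenchymal miRNAs. A marker with no rat-named row was taken from another species' row of that name.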

Additional observations from a re-analysis of the deposited data

How the results depend on the processing

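Across 8 scalings the ratio of miR-143-3p to untreated cells ranged from 2.50 to 2.73 with the inflammatory mixture and from 4.01 to 4.56 with IL-4/C1q. That of miR-145-5p ranged from 1.73 to 1.90 and from 2.95 to 3.36, so no scaling brought its first ratio to 2-fold, and none changed the number of arms called. In the direct comparison all ratios of the 4 arms stayed above 1, from 1.55 (miR-145-3p) to 1.96 (miR-143-5p). A 4-fold minimum left 0 arms with the inflammatory mixture and 2 with IL-4/C1q, and a 1.5-fold minimum called 4 in the direct comparison. By dominant arms alone the miR-143 to miR-145 ratio was 48.3, 58.2 and 60.1. DESeq2 size factors called 5 mesenchymal miRNAs higher with IL-4/C1q.

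The background counts moved as follows, in the order inflammatory mixture, IL-4/C1q, direct comparison. No count minimum gave 109, 103 and 52 miRNAs higher and 327, 330 and 38 lower. A minimum of 200 gave 41, 36 and 3 higher and 61, 63 and 0 lower. At 1.5-fold 132, 102 and 22 were higher, and 19 were lower in the direct comparison. At 4-fold 6, 12 and 2 were higher, with 72 lower for IL-4/C1q and 0 in the direct comparison. Rat-named rows gave 46, 53 and 3 lower and 1 higher in the direct comparison.

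Taking the highest row of an arm changed nothing, as each arm has 1 row. Shares of length variants without substitution-tagged rows were not run for the same reason, and there was no replicate to leave out. No paired analysis was possible because each condition has 1 library. Depth limits miR-143-5p and miR-145-5p most, at 341 and 422 untreated counts.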

Other observations

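The miR-143-3p row was a large part of all rat-named counts with a substitution tag: 41.6% in untreated cells, 64.2% with the inflammatory mixture and 77.0% with IL-4/C1q. Rat-named substitution rows held 2.92%, 4.76% and 6.37% of miRNA counts in the same order. The miR-143-3p row alone held 1.21%, 3.06% and 4.90%, so the rise lay in that row and not in the other substitution rows. Of the 25 substitution tags that matched the RefSeq base, 13 stood at the last base, as in miR-143-3p, and 12 of these 13 changed it to T. Whether such rows hold only molecules with the substituted end is not given in the sources used here.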
